A study of Mus musculus with 12 samples.

Results

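Insulin-like growth factors (IGFs), their receptors and their binding proteins were followed across bulk RNA sequencing of the mouse dorsal meninges. The 10 genes were taken by name from a count table of 55385 rows, namely the ligands Igf1 and Igf2, the receptors Igf1r and Igf2r, and the binding proteins Igfbp2, Igfbp3, Igfbp4, Igfbp5, Igfbp6 and Igfbp7. All 10 were found and all 10 passed the filter on low counts, among 18238 genes tested. The study asked how age shapes the meningeal response to a mild traumatic brain injury (TBI) long after the event.

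The 12 libraries formed 4 groups of 3. Young Sham and Young TBI came from male C57BL/6J mice of 10 weeks that were bought commercially. Aged Sham and Aged TBI came from male C57BL/6 mice of 20 to 24 months from National Institute on Aging colonies, so that supplier and age cannot be told apart. TBI groups received a single mild closed-skull hit over the right inferior temporal lobe and in Sham groups the anaesthetised mice were prepared alike but the device was fired clear of the head. Tissue was taken 1.5 months later in every group. Only the dorsal meninges were collected, without the site of the hit, and the labels give no genotype beyond the strain. Each library pooled 2 mice (the methods) or 2 to 3 (the figure legends), and p-values measure the spread between pools. Levels are CPM, which are counts relative to the library total after scaling by effective library size, and total counts per library ran from 8092374 to 16087717.

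IGF1 and IGF2 are secreted peptides that drive growth and survival through the IGF1 receptor, a tyrosine kinase that signals through insulin receptor substrates, PI3 kinase and AKT. The IGF2 receptor, also the cation-independent mannose 6-phosphate receptor, carries IGF2 to lysosomes for breakdown. The binding proteins hold IGFs in the extracellular space, where proteases release them, and fibroblasts of connective tissue such as the meninges are a local source of several of them.

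The sequences upstream of 5 of the genes are shown because these were the genes called with age in sham mice, 4 lower and 1 higher. Each is the 250 bases before a RefSeq transcript start on GRCm38.p6, written 5′ to 3′ on the strand of the gene. Capitals mark exact matches, on either strand, to TATAAA (the TATA box), to GGGCGG (the GC box) or to the letters of the CCAAT box. Over the 32851 RefSeq promoter windows searched in the same way, 12.4% held TATAAA, 32.7% held the GC box and 33.8% held the CCAAT box.
Igf1 (chr10:87860861-87861110, plus strand): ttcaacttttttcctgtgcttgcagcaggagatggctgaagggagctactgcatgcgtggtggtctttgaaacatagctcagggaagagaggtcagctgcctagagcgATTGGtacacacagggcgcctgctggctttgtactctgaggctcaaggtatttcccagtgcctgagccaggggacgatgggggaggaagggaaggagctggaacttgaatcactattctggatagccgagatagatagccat
Igf2 (chr7:142657497-142657746, minus strand): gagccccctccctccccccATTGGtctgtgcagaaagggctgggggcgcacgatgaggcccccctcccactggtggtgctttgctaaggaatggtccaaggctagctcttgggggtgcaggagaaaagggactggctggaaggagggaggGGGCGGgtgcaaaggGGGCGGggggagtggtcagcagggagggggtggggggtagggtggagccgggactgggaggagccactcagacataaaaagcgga
Igf1r (chr7:67952007-67952256, plus strand): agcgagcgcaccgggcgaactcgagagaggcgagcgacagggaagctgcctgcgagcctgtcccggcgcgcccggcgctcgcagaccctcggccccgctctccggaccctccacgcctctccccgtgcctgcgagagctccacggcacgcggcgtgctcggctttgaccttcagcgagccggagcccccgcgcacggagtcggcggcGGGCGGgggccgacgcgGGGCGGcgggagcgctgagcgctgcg
Igf2r (chr17:12769707-12769956, minus strand): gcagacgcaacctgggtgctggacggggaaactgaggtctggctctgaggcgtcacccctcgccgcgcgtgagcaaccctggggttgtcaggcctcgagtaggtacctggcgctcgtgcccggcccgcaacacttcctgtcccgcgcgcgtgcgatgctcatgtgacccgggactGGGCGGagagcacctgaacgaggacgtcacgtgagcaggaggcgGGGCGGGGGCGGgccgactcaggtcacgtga
Igfbp5 (chr1:72874866-72875115, minus strand): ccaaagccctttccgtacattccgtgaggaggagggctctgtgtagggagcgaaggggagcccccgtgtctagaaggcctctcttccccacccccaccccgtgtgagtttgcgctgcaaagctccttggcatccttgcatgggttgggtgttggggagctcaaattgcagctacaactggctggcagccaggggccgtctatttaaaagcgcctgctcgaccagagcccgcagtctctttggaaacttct

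The 5 windows differed in base composition. Igf1r had 42 CpG dinucleotides and Igf2r had 27, against 10 in Igfbp5, 6 in this window of Igf2 and 5 in Igf1, where the median window had 6. GC boxes numbered 2 in Igf1r, 3 in Igf2r and 2 in Igf2, and 0 in Igf1 and Igfbp5. A CCAAT box was found once in Igf1 and once in Igf2, and the exact letters TATAAA in 0 of the 5. Near matches to these letters were not searched for, so a TATA-like stretch may be present. A match is a description of the letters, not of a bound factor. Igf2 had 4 RefSeq starts and the one shown lies nearest to the 3′ end of the gene. Its other windows differed, with 1, 10 and 22 CpG dinucleotides, 0, 0 and 1 GC boxes, and 0 CCAAT boxes in each. Set against the gene bounds of GENCODE M21, the windows of Igf1 and Igf2 lie inside the gene, downstream of its first start, that of Igfbp5 overlaps the first bases of the gene, and those of Igf1r and Igf2r lie upstream of it.

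By GENCODE M21 on GRCm38, Igfbp2 (chromosome 1, 72824503 to 72852474, plus strand) and Igfbp5 (chromosome 1, 72857932 to 72874884, minus strand) lie side by side with 5457 bases between them. Igf1 spans chromosome 10, 87858265 to 87937042, and Igf1r spans chromosome 7, 67952827 to 68233668. Igf2 (chromosome 7, 142650766 to 142666816) lies 72622 bases from the imprinted non-coding gene H19. Of the 5723 exon bases of Igf2, 62.8% are shared on the same strand with the overlapping gene model Gm49394, which had 0 counts in every library. Reads that HTSeq found ambiguous between them may have been left out, so the level of Igf2 is uncertain. Igfbp7 shares 7.0% of its exon bases with Polr2b on the other strand, and the strand setting of the counting is not given in the sources used here. The other 8 genes share 0 exon bases with another gene.

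Binding proteins were by far the more abundant transcripts. Igfbp5 ranked second by count among all genes tested, with a mean of 5929 CPM over the 12 libraries, and Igfbp4 ranked 27 with 1378 CPM. Per kilobase of exon, the scale on which genes can be compared, mean levels in Young Sham were 1081 ± 34.8 CPM for Igfbp5, 412 ± 31.6 for Igfbp7, 315 ± 39.0 for Igfbp4 and 230.6 ± 15.8 for Igfbp6 (SD, n = 3 here and below). They were 146 ± 24.0 for Igfbp2, 65.5 ± 5.81 for Igfbp3, 26.7 ± 4.41 for Igf1, 19.4 ± 0.640 for Igf2r and 6.09 ± 0.347 for Igf1r. In Young Sham the ranges over libraries of neighbours in this order did not overlap. In Aged Sham the ranges of Igfbp7 and Igfbp4 overlapped (272 to 396 and 272 to 348 CPM per kilobase), as did those of Igfbp4 and Igfbp6, of Igfbp2 and Igfbp3, and of Igf1 and Igf2r. Igf2 is left out of this order because of the shared exons.

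**Figure D1:**
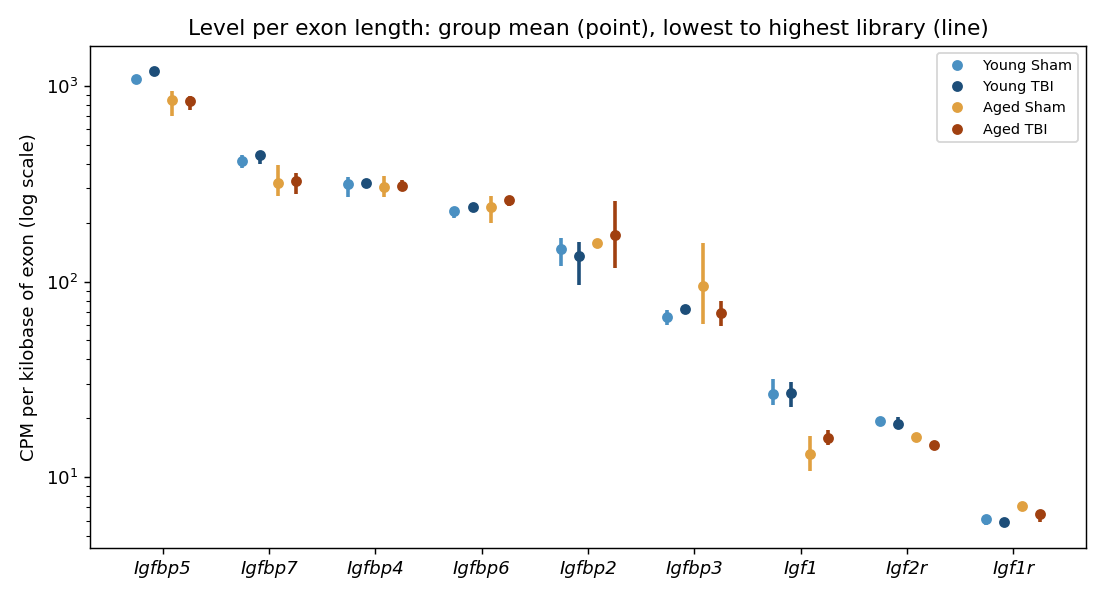
Level of 9 genes per kilobase of exon (CPM per kilobase, log axis), with the mean of each group as a point and the lowest to highest of 3 libraries as a line. Igfbp5 is highest in every group (1081 in Young Sham, 843 in Aged Sham) and Igf1r lowest (6.09 and 7.08).

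Both ligands fell with age. Igf1, the main mediator of growth hormone action, stood at 247, 232 and 314 CPM in Young Sham 1 to 3 and at 160, 122 and 106 CPM in Aged Sham 1 to 3. In injured mice it stood at 271, 304 and 226 CPM in Young TBI 1 to 3 and at 153, 172 and 144 CPM in Aged TBI 1 to 3. All 6 aged libraries were below all 6 young libraries. The log2 fold change was -1.03 ± 0.16 (SE) in sham mice (264 ± 43.7 to 129 ± 27.9 CPM, adjusted p = 0.00331) and -0.77 ± 0.16 in injured mice (267 ± 38.7 to 156 ± 14.1 CPM, adjusted p = 0.00914), by edgeR's quasi-likelihood test with Benjamini-Hochberg adjustment over all genes, as for every adjusted p here.

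Igf2, a growth factor gene imprinted in most tissues, had 31.1, 23.2 and 29.0 CPM in Young Sham 1 to 3, and 18, 13.3 and 13.9 CPM in Aged Sham 1 to 3. In injured mice it had 31.6, 25.6 and 23.1 CPM in Young TBI 1 to 3, and 18.5, 14.5 and 15 CPM in Aged TBI 1 to 3. Again the 6 aged libraries lay below the 6 young ones. Its log2 fold change with age was -0.88 ± 0.16 in sham mice (adjusted p = 0.00687) and -0.74 ± 0.16 in injured mice (adjusted p = 0.0116). The log2 ratio of Igf1 to Igf2 CPM was 3.25 ± 0.23 in Young Sham, 3.32 ± 0.24 in Young TBI, 3.10 ± 0.14 in Aged Sham and 3.29 ± 0.26 in Aged TBI, with overlapping ranges. The ratio is not scaled to exon length, and reads in exons shared with Gm49394 may be missing from Igf2. It therefore compares groups and does not compare the level of Igf1 with that of Igf2.

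The receptors moved in opposite directions in sham mice. Igf1r, the signalling receptor, had 107, 104 and 95.8 CPM in Young Sham 1 to 3 and 118, 119 and 119 CPM in Aged Sham 1 to 3, which did not overlap. The rise was small, at 0.22 ± 0.06 on the log2 scale (adjusted p = 0.045), and it did not pass when Young Sham 3 was left out (adjusted p = 0.194), nor when Aged Sham 2 was (adjusted p = 0.116). In injured mice Igf1r had 96.8, 97.6 and 102 CPM in Young TBI 1 to 3 and 99.5, 113 and 114 CPM in Aged TBI 1 to 3, where the groups overlapped and the difference of 0.14 ± 0.06 did not pass (adjusted p = 0.154). It passed without Aged TBI 1 (0.19 ± 0.06, adjusted p = 0.0691) and when libraries were scaled by their totals alone (0.22 ± 0.07, adjusted p = 0.0437).

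Igf2r, the clearance receptor, fell in both comparisons. It had 180, 175 and 187 CPM in Young Sham 1 to 3 and 156, 146 and 148 CPM in Aged Sham 1 to 3. In injured mice it had 189, 167 and 167 CPM in Young TBI 1 to 3 and 137, 143 and 128 CPM in Aged TBI 1 to 3. The 6 aged libraries lay below the 6 young ones, with log2 fold changes of -0.27 ± 0.06 (adjusted p = 0.0229) and -0.36 ± 0.06 (adjusted p = 0.00482). The log2 ratio of Igf1 to Igf1r CPM, a description with no test and not scaled to exon length, was 1.36 ± 0.31 in Young Sham and 0.10 ± 0.31 in Aged Sham. After injury it was 1.43 ± 0.25 in the young and 0.52 ± 0.16 in the aged group.

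**Figure D2:**
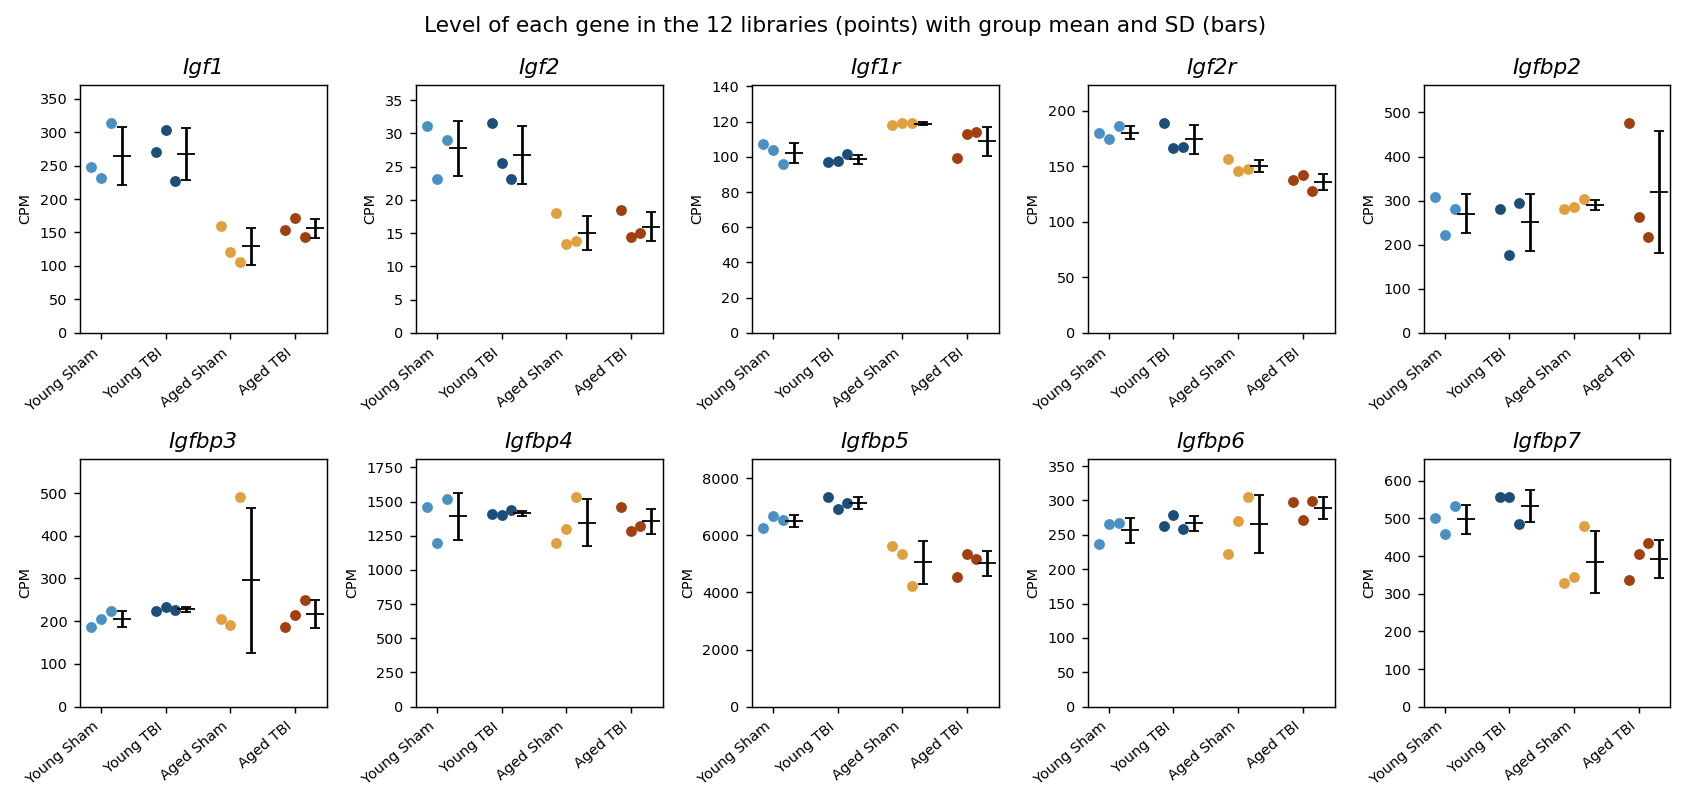
CPM of each of the 10 genes (vertical axes from 0, each on its own scale) in the 12 libraries, as points by group in the order of replicate 1 to 3, with the group mean and SD as bars (n = 3). Igf1, Igf2, Igf2r and Igfbp5 are lower in all 6 aged than in all 6 young libraries, and Igfbp3 in Aged Sham 3 (492 CPM) stands apart from the other 11 libraries (185 to 250 CPM).

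Among the binding proteins, Igfbp5 fell with age. Igfbp5, which binds extracellular matrix as well as IGFs, had 6272, 6686 and 6521 CPM in Young Sham 1 to 3 and 5631, 5351 and 4211 CPM in Aged Sham 1 to 3. In injured mice it had 7360, 6935 and 7129 CPM in Young TBI 1 to 3 and 4528, 5354 and 5173 CPM in Aged TBI 1 to 3. No aged library reached the lowest young one. The log2 fold change was -0.36 ± 0.10 in sham mice (adjusted p = 0.0378) and -0.51 ± 0.10 in injured mice (adjusted p = 0.00656). The fall in sham mice did not pass when Young Sham 2 was left out (adjusted p = 0.102), nor when Young Sham 3 was (adjusted p = 0.117), and without Aged Sham 3, the lowest library, the value was -0.24 ± 0.07 (adjusted p = 0.061).

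Igfbp7, a secreted relative with low affinity for IGFs that is abundant in vessels, fell with age in injured mice. It had 558, 558 and 485 CPM in Young TBI 1 to 3 and 337, 407 and 435 CPM in Aged TBI 1 to 3 (-0.44 ± 0.14, adjusted p = 0.0509). That call was lost without Young TBI 1 (adjusted p = 0.143), Young TBI 2 (adjusted p = 0.128) or Aged TBI 1 (adjusted p = 0.158). In sham mice it had 503, 458 and 534 CPM in Young Sham 1 to 3 and 329, 344 and 479 CPM in Aged Sham 1 to 3, where Aged Sham 3 alone reached into the young range. The difference there was -0.38 ± 0.14 and did not pass (adjusted p = 0.106), and without Aged Sham 3 it was -0.57 ± 0.11 and passed (adjusted p = 0.0096).

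Igfbp2, Igfbp3, Igfbp4 and Igfbp6 passed in neither age comparison. Igfbp4, which is cleaved by the protease PAPP-A, had 1391 ± 172 CPM in Young Sham and 1346 ± 173 in Aged Sham, a difference of -0.048 on the log2 scale with a 95% interval of -0.27 to 0.17. Igfbp6, which prefers IGF2, had 256 ± 17.6 and 266 ± 42.1 CPM, a difference of 0.053 with an interval of -0.16 to 0.27. Intervals for both genes in injured mice also spanned 0, at -0.28 to 0.16 and -0.10 to 0.33.

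Igfbp3, the main carrier of IGF1 in blood, was set by a single library. It had 188, 204 and 224 CPM in Young Sham 1 to 3 and 205, 191 and 492 CPM in Aged Sham 1 to 3. The log2 difference of 0.53 ± 0.28 (adjusted p = 0.27) became -0.055 ± 0.11 without Aged Sham 3 (adjusted p = 0.828). Igfbp2 likewise had 477 CPM in Aged TBI 1 against 264 and 217 CPM in Aged TBI 2 and 3, and its difference with age in injured mice was 0.35 ± 0.26 (adjusted p = 0.413), or -0.071 ± 0.20 without Aged TBI 1 (adjusted p = 0.865). In Aged TBI 1 fat and skin markers summed to 158 CPM against 14.2 and 13.2 CPM in Aged TBI 2 and 3. Most of this came from the keratins Krt14 (98.3 CPM) and Krt5 (46.2 CPM), with Adipoq (0.853 CPM), Plin1 (0.183 CPM) and Cfd (1.22 CPM) low. The same list summed to 142 CPM in Young Sham 2 (Krt14 91.6 CPM), where Igfbp2 was at 221 CPM against 308 and 281 CPM in Young Sham 1 and 3. Macrophage markers summed to 2455 CPM in Aged TBI 1 against 2019 and 1746 CPM in Aged TBI 2 and 3. The part of these markers was not tested. Intervals for Igfbp2 and Igfbp3 were the widest of the 10 genes, at -0.46 to 0.67 and -0.09 to 1.14 in sham mice.

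Summed over the 6 binding proteins, levels were 8964 to 9348 CPM in Young Sham and 7328 to 7867 in Aged Sham. They were 9584 to 10100 CPM in Young TBI and 7287 to 7795 in Aged TBI. Igfbp5 took 71.2% ± 2.41 of this sum in Young Sham and 66.0% ± 7.54 in Aged Sham, with 57.5% in Aged Sham 3. The log2 ratio of Igf1 to the sum, not scaled to exon length, was -5.12 ± 0.20 in Young Sham and -5.21 ± 0.23 in Young TBI. This ratio was -5.91 ± 0.26 in Aged Sham and -5.61 ± 0.12 in Aged TBI.

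Counted over the 10 genes, 5 were called with age in sham mice, where 15.6% of all genes tested were called. Of these 1 was higher, against 7.89% of all genes, and 4 were lower, against 7.71%. In injured mice 5 were called, all lower, against 20.2% of all genes called, 9.92% higher and 10.3% lower. With both age comparisons averaged, which reuses the same libraries, 6 were called against 32.6% of all genes, 1 higher and 5 lower against 16.9% and 15.7%. Groups did not overlap for 5 genes in sham mice (28.4% of all genes), 5 in injured mice (35.1%) and 4 over all 12 libraries (10.8%). The median log2 fold change of the 10 genes was -0.16 in sham and -0.22 in injured mice, beside 0.01 and 0.02 over all genes tested.

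Injury left no member past the test at 1.5 months. In edgeR 0 of the 10 were called for injury in young mice, where 0.00548% of all genes were called. At an unadjusted p under 0.05 there were 0 members, beside 757 of the 18238 genes tested, and by DESeq2 0 members, beside 8 genes. In aged mice 0 members were called against 1.65% of all genes. At an unadjusted p under 0.05 there was 1 member (Igf2r, -0.14 ± 0.06, unadjusted p = 0.0431, adjusted p = 0.327), beside 2633 of the 18238 genes tested. By DESeq2 there were 0 members, beside 633 genes. Over young and aged mice together 0 members were called against 0% of all genes, with 0 members by either criterion (2021 of all genes at an unadjusted p under 0.05 and 336 by DESeq2). Igf1 had intervals of -0.32 to 0.36 in young and -0.07 to 0.62 in aged mice. Igfbp5 was higher in all 3 Young TBI than in all 3 Young Sham libraries, by 0.14 ± 0.10 with an adjusted p of 1, where 11.5% of all genes had groups that did not overlap. Igf1r and Igf2r did not overlap between Aged TBI and Aged Sham (17.3% of all genes), and neither passed.

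The injury by age interaction was called for 0 of the 10 genes and for 0% of all genes in edgeR, with 0 members at an unadjusted p under 0.05 and 0 by DESeq2. Across all genes 1386 had an unadjusted p under 0.05 and DESeq2 called 4. The difference was 0.26 ± 0.22 for Igf1 (interval -0.23 to 0.74), 0.14 ± 0.22 for Igf2 and -0.15 ± 0.14 for Igfbp5. For Igfbp3 it was -0.60 ± 0.40, or -0.020 ± 0.14 without Aged Sham 3.

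**Figure D3:**
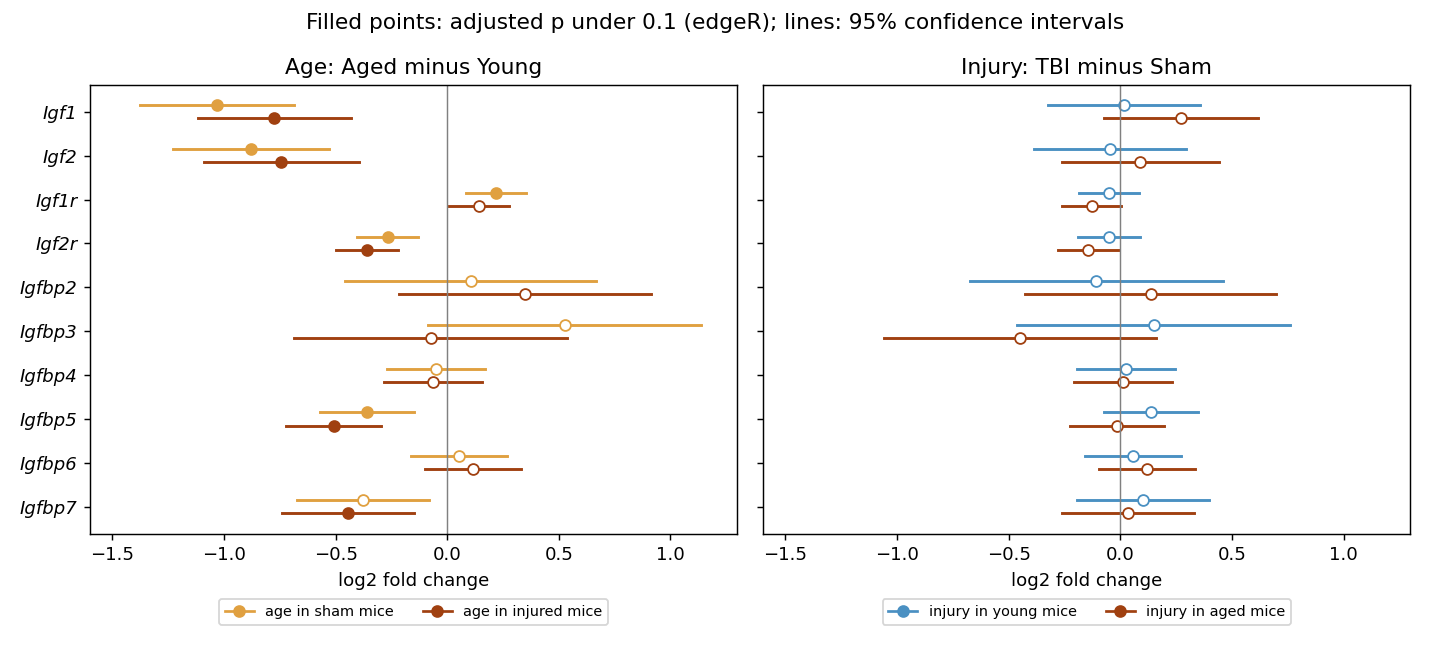
Log2 fold changes of the 10 genes with 95% confidence intervals, for age (left) and injury (right), with filled points for an adjusted p under 0.1. The filled points are all in the age panel, from -1.03 (Igf1, sham) to 0.22 (Igf1r, sham).

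Other genes of the IGF system were read from lists, beside 15.6% of all genes called with age in sham mice and 20.2% in injured mice. Counts on lists of 5 to 31 genes are given as descriptions and are not read as results about a list. Of the 18 list genes named for sham mice, 9 were called in every fit that left out 1 library, a check chosen after seeing the data (Htra1, Adam12, Ccn3, Htra3, Kazald1, H19, Igf2bp2, Grb10 and Socs1). Of the 20 named for injured mice 8 were (Igfals, Pappa2, Htra1, Htra3, Igf2bp2, Pik3r2, Akt2 and Grb14). The other named genes lost the call in at least 1 such fit, and a name under one comparison alone does not show that the comparisons differ. Of 5 tested outside the members, 0 passed with age in sham mice in edgeR (1 at an unadjusted p under 0.05, 0 by DESeq2, median -0.23 beside 0.01 over all genes) and 2 were lower in injured mice. Igfals, the acid-labile subunit that holds IGF1 and Igfbp3 in a large complex, was at 5.29 ± 1.05 CPM in Young TBI and 2.18 ± 0.37 in Aged TBI (-1.29 ± 0.20, adjusted p = 0.00308). The other was the insulin gene Ins2, at 1.84 ± 0.96 and 0.43 ± 0.28 CPM (-2.01 ± 0.70, adjusted p = 0.0793). Ins2 was low, at 2.03, 0.797 and 2.68 CPM in Young TBI 1 to 3 and 0.305, 0.753 and 0.228 CPM in Aged TBI 1 to 3. Its call held in 8 of 12 fits that left out 1 library. In the same comparison 9 of 10 choroid plexus markers were lower, and their part was not tested.

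Of 12 binding protein proteases and inhibitors tested, 1 was higher and 2 lower with age in sham mice, and 2 were higher and 2 lower in injured mice. Pappa2, a protease that cleaves Igfbp3 and Igfbp5, was at 18.4 ± 2.85 CPM in Young Sham and rose to 36.6 ± 4.65 CPM in Aged Sham (0.99 ± 0.31, adjusted p = 0.0682) and from 18.3 ± 2.95 to 58.6 ± 27.7 CPM in injured mice (1.66 ± 0.32, adjusted p = 0.00648). Htra1, a serine protease of the matrix, fell by 0.54 ± 0.06 on the log2 scale in sham mice (adjusted p = 0.00102) and by 0.25 ± 0.06 in injured mice (adjusted p = 0.0243). In aged mice Htra1 was also the only listed protease called with injury, higher by 0.33 ± 0.06 (adjusted p = 0.0802). Leaving out Young Sham 3, Young TBI 1, Young TBI 3, Aged Sham 2 or Aged TBI 1 gave 0 genes called for injury in aged mice. The injury call of Htra1 was therefore lost in each of those fits. Adam12 fell in sham mice (-0.61 ± 0.12) and the gelatinase Mmp2 in injured mice (-0.68 ± 0.21).

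Among 11 other proteins with an IGF-binding domain, 2 were higher and 2 lower in sham mice, and 2 higher and 1 lower in injured mice. Ccn3, a matricellular protein, was at 294 ± 21.0 CPM in Young Sham and rose to 535 ± 156 CPM in Aged Sham (0.86 ± 0.17, adjusted p = 0.0113), and Htra3 fell from 217 ± 10.4 to 153 ± 19.9 CPM (-0.50 ± 0.09, adjusted p = 0.00735). Kazald1 fell in sham mice (-0.90 ± 0.19) and Esm1, an endothelial proteoglycan, rose in injured mice (0.44 ± 0.13). Ccn6 rose in sham mice to 1.37 ± 0.43 CPM (1.25 ± 0.41).

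Of 10 imprinting partners and mRNA-binding proteins, 1 was higher and 2 lower in sham mice, and 2 higher and 2 lower in injured mice. H19 was at 1462 ± 148 CPM in Young Sham and fell to 828 ± 284 CPM in Aged Sham (-0.82 ± 0.19, adjusted p = 0.0208) and from 1603 ± 71.7 to 1014 ± 43.7 CPM in injured mice (-0.66 ± 0.19, adjusted p = 0.0388). Igf2bp2, which binds Igf2 mRNA, was at 11.3 ± 0.938 CPM in Young Sham and fell to 5.29 ± 0.485 CPM in Aged Sham (-1.09 ± 0.17, adjusted p = 0.00333) and by 1.24 ± 0.17 on the log2 scale in injured mice. Lin28b, an RNA-binding protein, was low in all groups but higher in aged mice (0.51 ± 0.31 to 1.52 ± 0.39 CPM in sham mice, 1.55 ± 0.44), and Lin28a was higher in injured mice (1.27 ± 0.39).

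Of 31 signalling genes downstream of the receptors, 1 was higher and 5 lower in sham mice, and 2 higher and 5 lower in injured mice (19.4% and 22.6% called, near the shares over all genes), with median log2 differences of -0.06 and -0.02. The PI3 kinase subunit Pik3r2 fell in both (-0.26 ± 0.07 and -0.34 ± 0.07). The kinase Akt2, named for injured mice, fell there (-0.27 ± 0.07). In sham mice Akt2 was at -0.22 ± 0.07, a value not checked by leaving out libraries. In sham mice the receptor adaptor Grb10 fell (-0.34 ± 0.07), as did Pik3r1 (-0.25 ± 0.08), and the substrate Irs2 rose (0.53 ± 0.16). In injured mice Grb14 (-0.58 ± 0.15) fell, and the kinase Rps6kb1 (0.21 ± 0.06) and its upstream inhibitor Tsc1 (0.17 ± 0.05) rose. Of 10 genes of the growth hormone axis, 0 were higher and 2 lower in each comparison (20.0% called), including the transducer Stat5b (-0.21 ± 0.06 and -0.17 ± 0.06) and, in sham mice, its inhibitor Socs1 (-0.72 ± 0.14). Of 12 FOXO targets, 1 was higher and 1 lower in each (16.7% called). These were Klf15 (1.07 ± 0.34) and Sesn3 (-0.39 ± 0.12) in sham mice, and Trim63 (2.55 ± 0.82) and Bcl6 (-0.54 ± 0.19) in injured mice. Klf15, a transcription factor, was at 23.5, 26.0 and 71.7 CPM in Aged Sham 1 to 3 and 17.8 to 21.7 CPM in Young Sham. Without Aged Sham 3 the difference of Klf15 was 0.36 ± 0.11 (adjusted p = 0.0687). In that library some bone markers were high (Spp1 and Ibsp among them) and others at their lowest (Bglap and Sp7 among them), as given below. Without that library Irs2 was at 0.30 ± 0.12 (adjusted p = 0.14) and Sesn3 at -0.24 ± 0.09 (adjusted p = 0.113), and without Young TBI 1 Stat5b was at -0.11 ± 0.05 in injured mice (adjusted p = 0.286). Trim63, a ubiquitin ligase of muscle, was at 0.792, 4.38 and 0.761 CPM in Aged TBI 1 to 3, and without Aged TBI 2 its difference was 1.197 ± 0.61 (adjusted p = 0.241). Skeletal muscle markers summed to 1646 CPM in Aged TBI 2 against 31.9 and 28.2 CPM in Aged TBI 1 and 3. They also summed to 419 CPM in Young TBI 3, where Trim63 was at 0.510 CPM, against 50.6 and 44.7 CPM in Young TBI 1 and 2.

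Patterns most like those of the called genes were sought over the 12 libraries, as the root mean square difference of centred log2 CPM among 11129 other genes with a mean of at least 10 CPM. Igf1 was nearest to Cthrc1 (0.12), Mdga1 (0.13) and Dipk2a (0.13), where its own spread was 0.50. Igf2 was nearest to Loxl1, Itga11 and Serpinh1 (0.14 to 0.15 against 0.44). Igf2r was nearest to Sh2b1, Mdfic and Agpat1 (0.046 to 0.051 against 0.18) and Igfbp5 to Kctd15, Rnft2 and Ggcx (0.088 to 0.092 against 0.25). Igfbp7 was nearest to Tmem132e, Spock2 and Wnt10b (0.09 to 0.094 against 0.27) and Igf1r to Fbxl4, Vamp5 and Epb41 (0.057 to 0.06 against 0.12). A search of this kind returns nearest genes for any gene, and shared regulation was not tested. Within the 10 genes Igf1 and Igf2 differed by 0.20, and Igf1 and Igfbp3 by 0.72, the most of any pair.

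Markers of some cell types moved with age beside these genes. Over all genes, 15.6% were called with age in sham mice and 20.2% in injured mice. The 11 fibroblast markers summed to 20120 to 26030 CPM in young and 12600 to 14960 CPM in aged libraries, and 7 of 11 were lower in each age comparison. Col1a1 (-1.18 ± 0.12 in sham mice) and Col3a1 (-1.12 ± 0.18), structural collagens, fell, whereas the fibroblast receptor Pdgfra was at 0.20 ± 0.16 and did not pass. The 13 arachnoid and pial markers summed to 1517 to 2022 CPM in young and 2371 to 3066 CPM in aged libraries, with 7 and 8 of 13 higher. Of 13 macrophage markers 3 were higher in each, with sums of 1626 to 1884 CPM in young and 1743 to 2455 CPM in aged libraries. The 10 pericyte and smooth muscle markers, with 3 and 4 lower, summed to 2273 to 2522 CPM in young and 1884 to 2221 CPM in aged libraries. Of 10 endothelial markers 1 was higher in sham mice, and 1 was higher and 1 lower in injured mice, with median log2 differences of 0.12 and 0.05. Of 8 brain markers tested, 3 were higher in sham mice (Syt1 by 1.51 ± 0.20, Aqp4 by 0.90 ± 0.13 and Gfap by 0.80 ± 0.20) and 2 in injured mice (Syt1 by 1.49 ± 0.20 and Aqp4 by 0.81 ± 0.14), with sums of 594 to 809 CPM in young and 767 to 859 CPM in aged libraries. In bulk tissue, fewer cells of a type and less RNA per cell cannot be told apart, and the part of these shifts in the IGF results was not tested.

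Other lists moved with single libraries, with 1 group or in some of their genes. Of 10 bone and cartilage markers, 3 were higher and 5 lower with age in sham mice. In injured mice 0 were higher and 3 lower. Acan (-0.96 ± 0.16 in sham and -0.91 ± 0.16 in injured mice), Sp7 (-0.78 ± 0.14 and -0.55 ± 0.14) and Bglap2 (-1.33 ± 0.28 and -0.89 ± 0.27) were lower in both. In Aged Sham 3 bone and cartilage markers summed to 3725 CPM against 444 to 783 CPM in the other 11 libraries, mostly from Spp1 (2556 CPM) and Ibsp (973 CPM). Dmp1 was also high (67.9 CPM). In contrast Bglap (21.3 CPM), Bglap2 (16.9 CPM), Sp7 (56.2 CPM), Phex (1.62 CPM) and Acan (29.2 CPM) were at their lowest of the 12 libraries. Gh, growth hormone of the pituitary, was at 1033 CPM in Aged Sham 3 against 0 to 9.34 CPM. The other pituitary markers stayed at 0 to 5.92 CPM in that library (Prl 0.325, Pou1f1 0.730, Pomc 2.92, Cga 5.92). Cga was higher with age in sham mice (2.33 ± 0.27, adjusted p = 0.000948) and in injured mice (1.50 ± 0.27, adjusted p = 0.00541). Without Aged Sham 3 Igf1 was at -0.91 ± 0.16 with age in sham mice (adjusted p = 0.00739), Igf2 at -0.83 ± 0.18 (adjusted p = 0.0184) and Igf2r at -0.26 ± 0.07 (adjusted p = 0.0465), and 6 members were called. Choroid plexus markers summed to 1002 to 2405 CPM in Aged TBI and 2374 to 5287 CPM elsewhere, with 9 of 10 lower with age in injured mice and 0 of 10 in sham mice (edgeR, with 0 at an unadjusted p under 0.05 and 0 by DESeq2), and their part was not tested. Liver, the main source of circulating IGF1, was near 0, with Alb at 0 to 0.162 CPM.

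**Figure D4:**
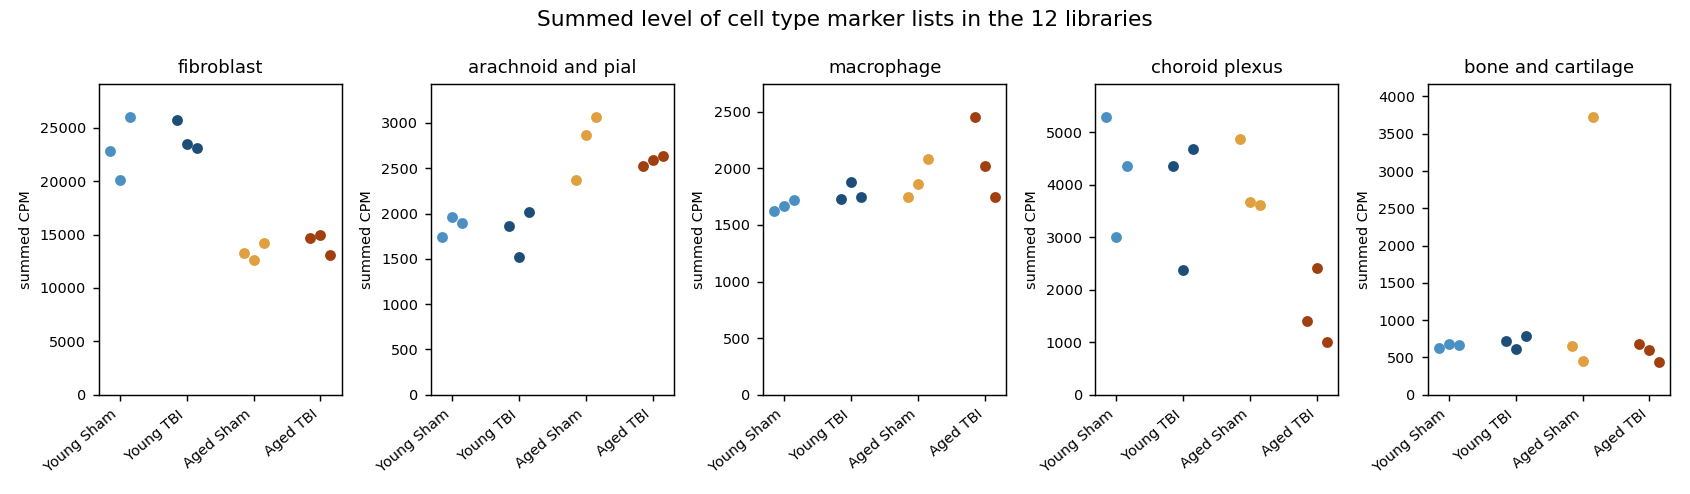
Summed CPM of 5 marker lists in the 12 libraries (vertical axes from 0), by group in the order of replicate 1 to 3. Fibroblast markers are lower (12600 to 14960 CPM) and arachnoid and pial markers higher (2371 to 3066 CPM) in the 6 aged libraries, and choroid plexus markers are lowest in Aged TBI 3 (1002 CPM). The bone and cartilage sum reaches 3725 CPM in Aged Sham 3, mostly from Spp1 (2556 CPM) and Ibsp (973 CPM).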

How the data were processed

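Dorsal meninges were profiled by bulk RNA sequencing in 12 libraries, 3 per group. Values are the deposited raw counts. The authors aligned reads to mm10 (HISAT2), took out PCR duplicates and reads of uninformative regions, applied SAMtools filters and assigned reads to genes (HTSeq). Tool versions for these steps, the annotation release and the strand setting are not given in the sources used here. Of 55385 rows, 19413 held no count.

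Counts were tested with edgeR 4.0.16 in R 4.3.3. Filtering with filterByExpr left 18238 genes with 99.81% of counts, libraries were scaled by TMM (factors 0.969 to 1.04), and all contrasts came from 1 quasi-likelihood model of the 4 group means. Tests were two-sided, with Benjamini-Hochberg adjustment across the genes tested and calls at an adjusted p under 0.1. DESeq2 1.42.0, other scalings and filters, a replicate block and leaving out each library were alternatives. The fit was tested on simulated data. A first pass criterion, set on single slopes of one simulation, was not met, and it was replaced by one that sets slopes against their standard errors over several simulations, which was met.

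The members and gene lists were chosen with earlier results of these data known. All members were described. From each pathway list, up to 3 called genes higher and 3 lower per age contrast were eligible to be named, by size of change, if the higher group averaged 1 CPM or more and the libraries compared did not overlap. Marker genes, Gh and Alb, and Htra1 with injury, were named after their values were seen. Total counts of 8092374 to 16087717 limit the precision of low genes, for which a count of 0 allows up to 3 counts, counting error only. Gene positions and exon overlaps came from GENCODE M21 and promoter sequences from RefSeq (GRCm38.p6), with all 10 members matched in both.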

Additional observations from a re-analysis of the deposited data

How the results depend on the processing

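The falls of Igf1, Igf2 and Igf2r with age kept their direction and their call in both age comparisons under every alternative run, from -1.22 to -0.89 (Igf1), -1.03 to -0.79 (Igf2) and -0.30 to -0.22 (Igf2r) on the log2 scale in sham mice. Calls of Igf1r and Igfbp7 in both age comparisons, and of Igfbp5 in sham mice, depended on single libraries. Igfbp7 in sham mice also passed by DESeq2 (-0.38, adjusted p = 0.0498) and with no filter (adjusted p = 0.0262), and Igfbp6, with age over sham and injured mice, without Aged Sham 1 (0.13, adjusted p = 0.084). Leaving out a library gave 3 (without Young Sham 3) to 6 members called with age in sham mice. The cause was not tested for any change here.

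Values of members that did not pass changed sign. Igf1 with injury in young mice was -0.022, -0.063 and -0.080 without Young Sham 1, Young Sham 2 and Young TBI 2 (range to 0.17). Without Aged Sham 3, Igfbp3 was 0.13 with injury in aged mice (range from -0.69), -0.055 with age in sham mice (to 0.76) and -0.065 with age over both (to 0.34). With age in injured mice it was 0.0032 by library totals and 0.018 without Aged TBI 1 (from -0.20). With age in sham mice, Igfbp2 was -0.022 without Young Sham 2 (to 0.21), Igfbp4 was 0.020 and 0.026 without Young Sham 3 and Aged Sham 1 (from -0.15), and Igfbp6 was -0.0058 and -0.060 without Young Sham 1 and Aged Sham 3 (to 0.16). Igfbp2 with age in injured mice was -0.071 without Aged TBI 1 (to 0.55). By library totals Igfbp4 was 0.013 with age in injured mice and 0.0052 with age over both.

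Over all genes, DESeq2 called 8, 633, 4 and 336 genes (injury in young mice, injury in aged mice, interaction, injury over both ages), and no filter gave 8, 706, 5 and 400, against 1, 301, 0 and 0. At an adjusted p under 0.05 there were 0, 0, 1755 and 2433 (injury in young, injury in aged, age in sham, age in injured mice), and with only the 2 groups compared 3, 70 and 1787 (the first 3 of these). Leaving out a library gave 0 to 2, 0 to 333, 1226 to 3644 and 2117 to 4495, and 0 to 1 for injury over both ages. By library totals 66.3% of calls with age in sham mice and 71.8% in injured mice were higher, against 50.6% and 49.1%. Same-numbered libraries of different groups had r = -0.183 to 0.111, with 1 of 18 pairs over 0.1. Differently numbered ones had r = -0.178 to 0.155, with 7 of 36 over 0.1. With 3 libraries per group these values cannot settle whether replicate numbers mark a batch. A replicate block gave 56 genes for injury in aged mice and 1 for injury over both ages, 6 members with age in sham mice, where Igfbp7 passed (-0.39, adjusted p = 0.0948), and changed no other member's call.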
